A study of Rattus norvegicus with 16 samples.

Results

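The 6 genes described here are of the renal cytochrome P450 families that act on arachidonic acid, together with the hydrolase that removes their epoxide products. They were found by their symbols in the deposited gene table and are 6 of its 35849 genes: Cyp4a1 (ENSRNOG00000009597), Cyp4a2 (ENSRNOG00000030154), Cyp4a3 (ENSRNOG00000009741), Cyp4a8 (ENSRNOG00000008842), Cyp2c23 (ENSRNOG00000013291) and Ephx2 (ENSRNOG00000017286). RNA sequencing was performed on kidney tissue from 16 male Sprague Dawley rats, aged 6 to 8 weeks and weighing 200 ± 20 g at the start, with 4 rats in each of 4 groups. The normal group received citrate buffer and a normal diet. The DN (diabetic nephropathy) group received streptozotocin, a toxin of the insulin-producing cells, at 45 mg/kg in citrate buffer and then a diet high in glucose and fat, and only rats whose blood glucose passed 16.7 mmol/L a week later were kept. The SIN (20 mg/kg) group and the SIN (40 mg/kg) group were made diabetic in the same manner on the same diet and were given sinomenine (SIN), an alkaloid, by gavage every day for 8 weeks, whereas DN rats were given vehicle. Toxin, glucose selection and diet were applied together, so DN against normal cannot tell them apart, and no group received SIN without diabetes. The animals were assigned to groups at random and each library is a separate rat, numbered 1 to 4 within its group.

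Arachidonic acid is cut from membrane phospholipids by phospholipases A2 and can be oxidised by cytochrome P450 enzymes along competing routes. Cyp4a enzymes hydroxylate the last carbon of fatty acids. Some of them form 20-HETE from arachidonic acid, which constricts small renal vessels and inhibits sodium transport in the tubule. Enzyme activities were not measured here. Cyp2c23, the main epoxygenase of the rat kidney, forms epoxyeicosatrienoic acids (EETs), which relax vessels, and Ephx2, the soluble epoxide hydrolase, converts EETs to less active diols. Most of these enzymes are found in the proximal tubule, and Cyp4a genes are known targets of PPAR alpha, a nuclear receptor that senses fatty acids.

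The Cyp4a genes lie side by side on chromosome 5 in the order Cyp4a8, Cyp4a2, Cyp4a2l1, Cyp4a3 and Cyp4a1 in the RefSeq annotation of the build GRCr8, whereas Cyp2c23 is on chromosome 1 and Ephx2 on chromosome 15. Cyp4a2l1, a further copy between Cyp4a2 and Cyp4a3, was not analysed here. The deposited counts were made on an older build, Rnor_6.0, and only these RefSeq positions are given. The 250 bases before the transcription start are shown for 3 Cyp4a genes. The windows of Cyp4a2 and Cyp4a3 are near copies of each other, and Cyp4a8 is the member whose group means were highest in DN among the 3. These bases lie before the transcript, so their likeness does not tell how reads were divided between genes. A link between the windows and the expression values was not tested. The windows are chr5:134170909-134171158 for Cyp4a2, chr5:134352237-134352486 for Cyp4a3 and chr5:133970227-133970476 for Cyp4a8, all on the minus strand of GRCr8 and written 5′ to 3′ from RefSeq, with capitals marking the motif AGGTCA, a half-site that many nuclear receptors bind.
Cyp4a2: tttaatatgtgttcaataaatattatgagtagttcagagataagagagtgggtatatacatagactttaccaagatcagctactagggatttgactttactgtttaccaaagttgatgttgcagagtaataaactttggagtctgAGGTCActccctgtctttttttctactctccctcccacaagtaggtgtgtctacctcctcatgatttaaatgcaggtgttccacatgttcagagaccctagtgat
Cyp4a3: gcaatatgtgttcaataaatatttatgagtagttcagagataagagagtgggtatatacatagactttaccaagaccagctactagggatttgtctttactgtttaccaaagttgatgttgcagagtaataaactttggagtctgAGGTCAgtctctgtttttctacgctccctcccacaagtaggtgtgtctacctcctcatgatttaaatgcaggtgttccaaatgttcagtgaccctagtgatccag
Cyp4a8: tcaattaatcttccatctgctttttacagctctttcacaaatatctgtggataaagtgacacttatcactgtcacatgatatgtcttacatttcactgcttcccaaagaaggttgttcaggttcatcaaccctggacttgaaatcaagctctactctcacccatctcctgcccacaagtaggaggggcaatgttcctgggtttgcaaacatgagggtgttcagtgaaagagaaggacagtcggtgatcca
Of 245 aligned bases of the Cyp4a2 and Cyp4a3 windows 9 differed, an identity of 96.3%, whereas Cyp4a2 and Cyp4a8 shared 60.1% of 238 aligned bases. The windows of Cyp4a2 and Cyp4a2l1 were identical over 214 aligned bases. AGGTCA was searched on both strands and was present once in the Cyp4a2 and Cyp4a3 windows, in each case 105 bases before the start, and was not found in the windows of Cyp4a8 and Cyp2c23. Of 33469 windows of the same length before RefSeq genes, 14.06% held it, so 2 of the 4 members with a window is a description of these letters and not of binding. The full direct repeat, AGGTCA copied again after a spacer base, stood in 0.0508% of all windows and in none of the 4.

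Expression is given as CPM, the estimated counts of a gene divided by the rat's library total after TMM scaling over all 16 rats, on the usual CPM scale, and levels of different genes are compared only as CPM per kilobase of the gene length that the table lists. Libraries held from 19616312 to 25217030 estimated counts, and each member was tested in every comparison. The 6 genes together took between 1.06% and 1.86% of a rat's counts, and Cyp4a2 alone between 0.587% and 1.21%. On the per-length scale the normal group held 7394 ± 716 CPM per kilobase of Cyp4a2 (SD, n = 4), 1484 ± 577 of Cyp4a3, 1242 ± 202 of Cyp2c23, 272 ± 38.4 of Cyp4a8, 126 ± 49.9 of Ephx2 and 88.4 ± 12.9 of Cyp4a1. Cyp4a2 was thus the most abundant member in the kidney by this scale, and in the other groups too (4698 to 5733 CPM per kilobase on average). The members fell into pairs by the order of their group means: Cyp4a1 and Cyp4a2 ran from normal through DN and SIN (20 mg/kg) down to SIN (40 mg/kg), Cyp4a8 and Cyp2c23 were highest in DN and lowest in normal, and Cyp4a3 and Ephx2 were highest in normal and lowest in DN. Of the neighbours in these orders, only the step from DN to the next group in Cyp4a8 had no overlap of rats. The orders come from these same values, and the share of all genes without such overlap was not counted. Statements on overlap, here and below, therefore only describe the rats.

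**Figure D1:**
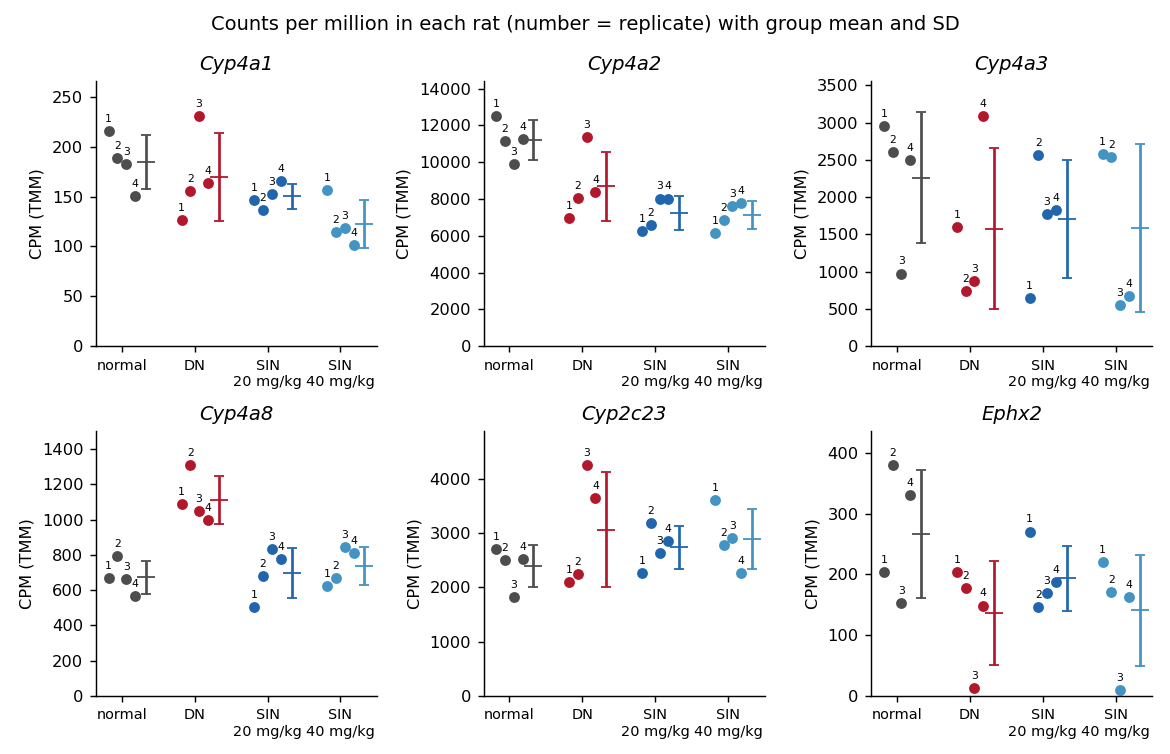
CPM (TMM-scaled, linear axes from 0) of the 6 genes in each rat, with the replicate number above each point and the group mean and SD beside it (4 rats per group). Cyp4a8 in the 4 DN rats (996 to 1309 CPM) lies above every other rat, Cyp4a2 in both SIN groups lies below every normal rat, and Ephx2 is near 10 CPM in DN replicate 3 and SIN (40 mg/kg) replicate 3.

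Whether the diabetic kidney differed from the normal one was tested by edgeR's quasi-likelihood test on the 8 rats of the comparison, two-sided, with Benjamini-Hochberg adjustment over all genes tested. Between DN and normal 3076 of 15777 genes passed an adjusted p under 0.05, which is 19.5%, and 1 of the 6 members did, Cyp4a8. That is 1 gene of 6 beside a background of about 1 in 5, so the count is no result about the members as a group, and their median log2 fold change was -0.24 beside 0.0016 over all genes tested. Without DN replicate 3, whose markers stand apart as described with Ephx2, 2 members passed (Cyp4a8 and Cyp4a2), with 16.2% of all genes called in that fit. Between SIN (20 mg/kg) and DN 0 of the 15725 genes tested passed the adjusted threshold (0%), and 0 of 6 members. Likewise 0 of 15530 genes (0%) and 0 members passed between SIN (40 mg/kg) and DN. At an unadjusted p under 0.05 these comparisons held 15.4% and 17.1% of all genes, with 1 member at 20 mg/kg (Cyp4a8) and 2 at 40 mg/kg (Cyp4a8 and Cyp4a1). DESeq2 and edgeR's exact test each called 1 member, Cyp4a8, at either dose, among 219 and 89 genes at 20 mg/kg and 436 and 161 genes at 40 mg/kg. Against the normal group, 6.35% of genes were called in SIN (20 mg/kg) and 5.97% in SIN (40 mg/kg), and 1 member was called in both, Cyp4a2. Between the doses 0.00639% of genes, that is 1 of 15657, passed, and 0 members did by any of the 3 tools, while 4.98% of genes and 1 member (Cyp4a1) had an unadjusted p under 0.05. The same 4 DN rats stand in 3 of these comparisons and the same 4 normal rats in another 3, so their values are not independent of each other.

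**Figure D2:**
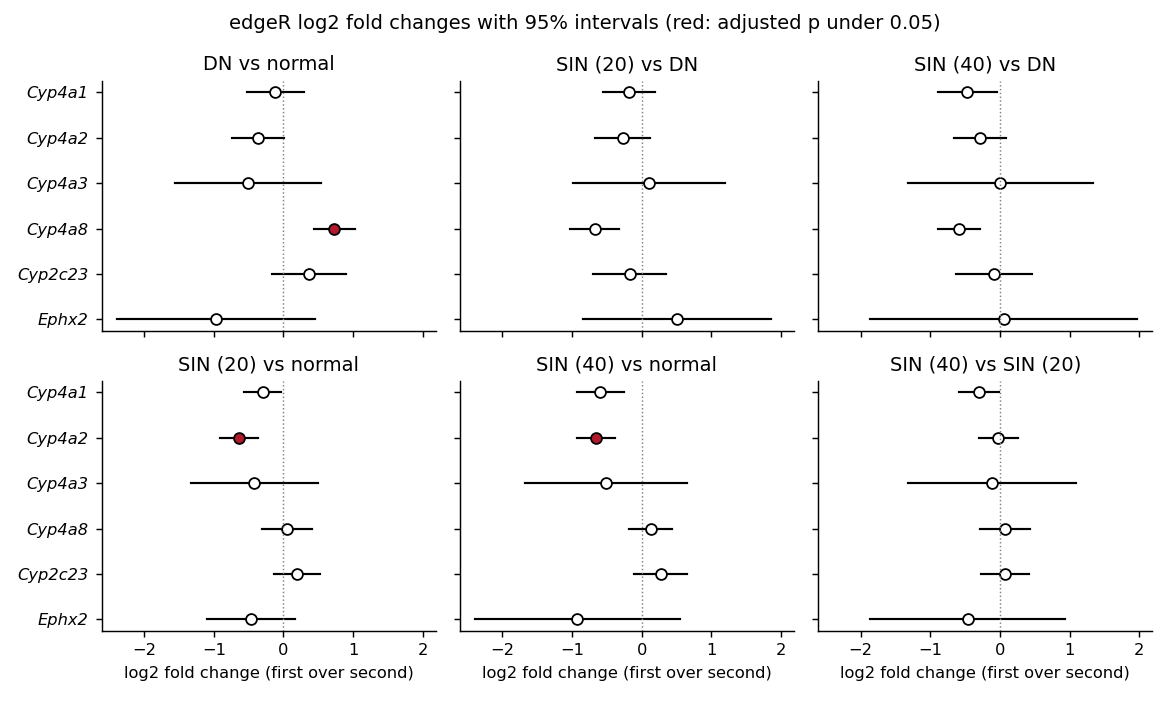
Log2 fold changes of the 6 genes in the 6 comparisons (first group over second). Bars are 95% intervals derived from edgeR's quasi-likelihood F test, and red points mark an adjusted p under 0.05. Red points are Cyp4a8 in DN over normal (0.73) and Cyp4a2 over normal at the lower and the higher SIN dose (-0.64 and -0.66), and the bars of Cyp4a3 and Ephx2 are the widest.

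Cyp4a8, a further Cyp4a gene, had its highest group mean in DN. It was at 670, 796, 660 and 565 CPM in the normal rats and at 1089, 1309, 1051 and 996 CPM in the DN rats. In the SIN (20 mg/kg) rats it was at 506, 683, 832 and 775 CPM, and in the SIN (40 mg/kg) rats at 625, 668, 844 and 810 CPM. Every DN rat was above every rat of the other 3 groups, which overlapped one another. The DN mean (1112 ± 137 CPM) was 1.65-fold the normal mean (673 ± 94.99 CPM). The log2 fold change of DN over normal was 0.73 (SE 0.13, 95% interval 0.43 to 1.02, adjusted p = 0.00976 in edgeR's quasi-likelihood test), and the call held in each of 16 alternatives, with adjusted p-values from 3.08e-06 to 0.0387. SIN (20 mg/kg) over DN was -0.68 (SE 0.16, 95% interval -1.03 to -0.32), with an unadjusted p = 0.00176 and an adjusted p = 0.27 in the same test. DESeq2 gave an adjusted p = 0.00809 and edgeR's exact test 0.0357 for this difference, and the adjusted p over its alternatives reached 0.545. SIN (40 mg/kg) over DN was -0.59 (SE 0.14, 95% interval -0.89 to -0.29, adjusted p = 0.174), again past the threshold with DESeq2 (0.00299) and the exact test (0.0255) and not with the other alternatives (up to 0.392). The groups did not overlap in either comparison, and the call on SIN therefore rests on which test is used. The SIN groups themselves stood at 0.05 (95% interval -0.31 to 0.41) and 0.13 (-0.17 to 0.43) over normal, and neither was called. With 4 rats a group, differences anywhere inside those intervals remain compatible with the values.

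Some markers of other cells and of tubule segments also differed in DN. The summed level of 4 fibroblast and vessel wall markers, all of them detected, was 216 to 575 CPM in the DN rats (at most 249 without DN replicate 3), 150 to 229 in normal, 150 to 178 in SIN (20 mg/kg) and 176 to 202 in SIN (40 mg/kg), with 2 of the 4 (Pdgfrb and Col1a1) called higher in DN than in normal. In the S3 segment list of the proximal tubule, of 8 markers Slc5a10 and Slc5a1 rose in DN and Slc7a13 fell. Unlike Cyp4a8, Slc5a10 stayed called higher (1.27 and 0.97) and Slc7a13 called lower (-1.70 and -1.44) than normal in the SIN groups. Of 4 thick ascending limb markers Umod was called lower than normal in DN (-0.77, adjusted p = 0.0154 in the quasi-likelihood test). It was also called lower in both SIN groups (-0.76 and -1.06). Of 4 tested leukocyte markers Ptprc was called lower in DN (-0.81, adjusted p = 0.0328 in the same test). The DN calls of Slc5a1, Ptprc, Col1a1, Pdgfrb and Umod were lost in 7, 6, 4, 3 and 1 of the 8 fits that left out 1 rat. Of 6 markers shared by all proximal tubule segments 0 were called in DN against normal by edgeR's quasi-likelihood test, DESeq2 or the exact test. At an unadjusted p under 0.05 in the quasi-likelihood test 1 passed. The part of these marker differences in the Cyp4a8 result was not tested. In a whole kidney, fewer cells of a type and less RNA per cell cannot be told apart.

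Cyp4a2, the most abundant member and a 20-HETE synthase, was lower in both SIN groups than in the normal group. The normal rats held 12539, 11136, 9884 and 11247 CPM and the DN rats 6943, 8042, 11364 and 8392 CPM. The SIN (20 mg/kg) rats held 6274, 6564, 8028 and 8027 CPM and the SIN (40 mg/kg) rats 6161, 6878, 7625 and 7808 CPM. DN replicate 3 lay inside the normal range and the other 3 DN rats below it, whereas all 8 SIN-treated rats lay below every normal rat. SIN (20 mg/kg) over normal was -0.64 (SE 0.12, 95% interval -0.91 to -0.36, adjusted p = 0.015 in edgeR's test), a ratio of means of 0.645. Without SIN (20 mg/kg) replicate 2 this became -0.59 with an adjusted p = 0.0574, and with the replicate number as a block the adjusted p was 0.0626. The call held in the other 13 of 15 alternatives. SIN (40 mg/kg) over normal was -0.66 (SE 0.12, 95% interval -0.93 to -0.39, adjusted p = 0.0127), called in each of 15 alternatives, with adjusted p-values up to 0.0476. DN over normal was -0.36 (SE 0.17, 95% interval -0.74 to 0.01, adjusted p = 0.148), and leaving out DN replicate 3 gave -0.52 with an adjusted p = 0.0461, the one alternative of 15 that called it.

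The 2 doses did not differ in Cyp4a2 by more than the interval of -0.31 to 0.25 around a log2 fold change of -0.03. SIN (20 mg/kg) over DN was -0.27 (95% interval -0.66 to 0.12, adjusted p = 0.445) and SIN (40 mg/kg) over DN -0.29 (-0.66 to 0.09, adjusted p = 0.404), so a fall from DN was not shown by the quasi-likelihood test. Since Cyp4a2 and Cyp4a3 are close copies and had fractional counts in all 16 rats, their counts were also added and tested as 1 gene. The sum stood at -0.39 in DN over normal (adjusted p = 0.13), -0.60 in SIN (20 mg/kg) over normal (adjusted p = 0.0425) and -0.63 in SIN (40 mg/kg) over normal (adjusted p = 0.0191), with the same calls as Cyp4a2 alone. Beside these differences the summed S3 marker level was 2215 to 2622 CPM in normal rats, 1295 to 1763 in DN, 1194 to 1544 in SIN (20 mg/kg) and 986 to 1424 in SIN (40 mg/kg). Slc7a13, a transporter of the S3 segment, made 80.9% to 87.0% of that sum in normal rats and 28.2% to 68.9% in the others, at 1850 to 2207 CPM in normal rats and 435 to 981 CPM in the others. Without Slc7a13 the other 7 markers summed to 331 to 500 CPM in normal rats, 579 to 962 in DN, 512 to 1109 in SIN (20 mg/kg) and 406 to 467 in SIN (40 mg/kg), so the list did not move one way. Over normal, its median log2 fold change was 0.42 in DN, -0.23 in SIN (20 mg/kg) and -0.48 in SIN (40 mg/kg), and Slc5a10, a sugar transporter, rose in all 3 (1.46, 1.27 and 0.97). The part of S3 cells in the Cyp4a2 result was not tested.

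Cyp4a1, another omega-hydroxylase, was the least abundant member per length in the normal group. Its values were 216, 189, 183 and 150 CPM in normal rats, 127, 156, 231 and 164 in DN, 146, 136, 153 and 166 in SIN (20 mg/kg) and 156, 114, 118 and 101 in SIN (40 mg/kg). Of the SIN (40 mg/kg) rats 3 of 4 were below every rat of the other groups. SIN (40 mg/kg) over normal was -0.59 (SE 0.15, 95% interval -0.93 to -0.25) with an adjusted p = 0.0502 in edgeR's test, just above the threshold, and 8 of 16 alternatives placed it below. Among them, leaving out normal replicate 4 gave an adjusted p = 0.0419 and leaving out SIN (40 mg/kg) replicate 1 gave 0.0154, and over all alternatives it ran from 0.00531 to 0.143. SIN (40 mg/kg) over DN was -0.47 (SE 0.19, adjusted p = 0.263) and over SIN (20 mg/kg) -0.30 (SE 0.13, adjusted p = 0.962), both with an unadjusted p under 0.05. In DN over normal the log2 fold change was -0.12 (95% interval -0.53 to 0.29) and SIN (20 mg/kg) over normal -0.30 (adjusted p = 0.192).

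Cyp4a3, a close copy of Cyp4a2, varied more between rats of a group than between groups. It was at 2958, 2603, 974 and 2495 CPM in normal rats and at 1596, 734, 871 and 3094 CPM in DN rats. It was at 642, 2561, 1769 and 1827 CPM in SIN (20 mg/kg) rats and at 2578, 2540, 548 and 665 CPM in SIN (40 mg/kg) rats. Each group held rats under 1000 CPM (normal replicate 3, DN replicates 2 and 3, SIN (20 mg/kg) replicate 1 and SIN (40 mg/kg) replicates 3 and 4), and no rat lay between 974 and 1596 CPM. The highest rat was 3.04 times the lowest in normal, 4.21 in DN, 3.99 in SIN (20 mg/kg) and 4.71 in SIN (40 mg/kg), against at most 1.64 for Cyp4a2. DN over normal was -0.51 (SE 0.47, 95% interval -1.56 to 0.54, adjusted p = 0.454), and SIN over normal was -0.42 (-1.33 to 0.50) at 20 mg/kg and -0.51 (-1.68 to 0.66) at 40 mg/kg. SIN over DN was 0.10 (-0.99 to 1.198) and 0.01 (-1.32 to 1.33), with signs that turned in several alternatives. Differences of either sign inside these wide intervals remain compatible with the Cyp4a3 values.

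The spread of Cyp4a3 was not shared by Cyp4a2 in the same rats. On the per-length scale Cyp4a2 was 9.82 to 13.98 times Cyp4a3 in the 6 rats named above and 2.40 to 4.56 times in the other 10. Accordingly Cyp4a3 made 6.22% to 8.72% of all Cyp4a CPM per kilobase in the former and 16.9% to 27.8% in the latter. How the counting program divided reads between these genes, and any difference between rats in gene copies or sequence, was not tested. Values of Cyp4a3 were fractional in 16 of 16 rats, those of Cyp4a1 in 14 and of Cyp4a8 in 12, and those of Cyp2c23 and Ephx2 in 0, so single Cyp4a values carry the uncertainty of shared reads.

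**Figure D3:**
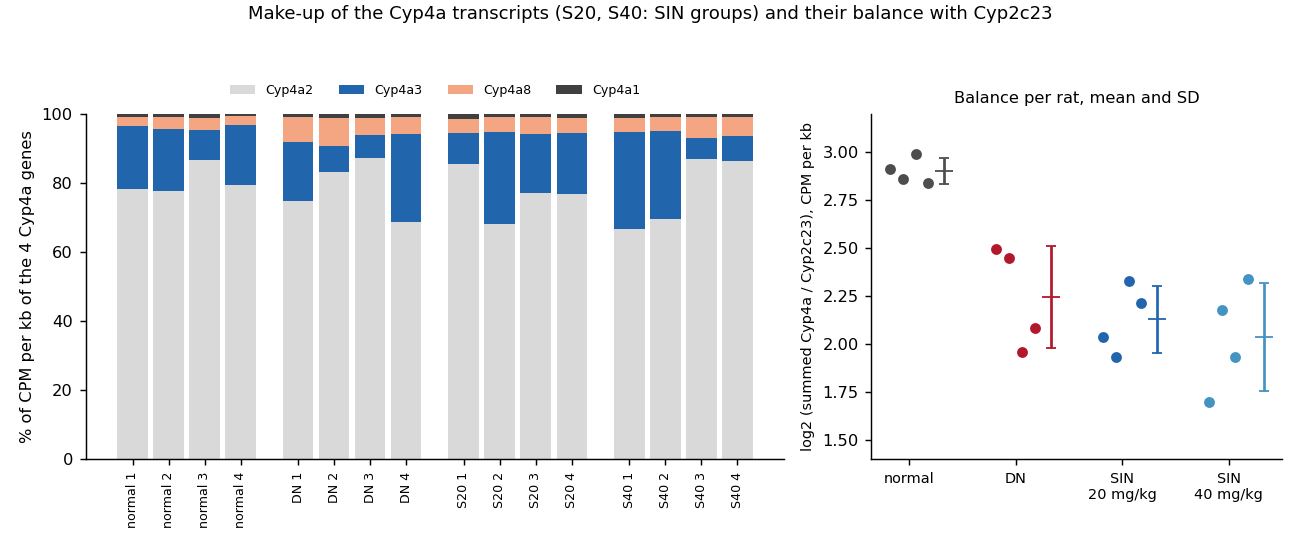
Left, share of each Cyp4a gene in the summed Cyp4a CPM per kilobase of every rat (S20 and S40 are the SIN groups); right, log2 of that sum over Cyp2c23 CPM per kilobase per rat, with group mean and SD (the axis starts at 1.4). Cyp4a3 takes 6.22% to 8.72% in 6 rats spread over the 4 groups and at least 16.9% in the others, and the balance is at least 2.84 in normal rats and at most 2.49 in all others.

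Cyp2c23, the epoxygenase, showed no called difference. It was at 2708, 2507, 1821 and 2519 CPM in normal rats and at 2093, 2255, 4257 and 3659 CPM in DN rats. It was at 2269, 3198, 2632 and 2857 CPM in SIN (20 mg/kg) rats and at 3610, 2775, 2917 and 2266 CPM in SIN (40 mg/kg) rats. DN replicates 3 and 4 and SIN (40 mg/kg) replicate 1 were the highest, and each pair of groups overlapped. DN over normal was 0.37 (SE 0.24, 95% interval -0.17 to 0.91, adjusted p = 0.293), SIN (20 mg/kg) over normal 0.19 (-0.14 to 0.53) and SIN (40 mg/kg) over normal 0.27 (-0.10 to 0.65). SIN over DN was -0.17 (-0.69 to 0.35) at 20 mg/kg and -0.09 (-0.63 to 0.46) at 40 mg/kg, and without DN replicate 3 both turned positive, to 0.03 and 0.12.

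The balance of omega-hydroxylase and epoxygenase transcripts was described per rat as the log2 ratio of summed Cyp4a over Cyp2c23, both in CPM per kilobase. It was 2.91, 2.86, 2.99 and 2.84 in the normal rats and 2.49, 2.45, 1.96 and 2.08 in the DN rats. It was 2.04, 1.94, 2.33 and 2.21 in the SIN (20 mg/kg) rats and 1.698, 2.18, 1.93 and 2.34 in the SIN (40 mg/kg) rats. Every normal rat was above every rat of the other groups, which overlapped one another. The group means (± SD, n = 4) were 2.90 ± 0.07, 2.25 ± 0.27, 2.13 ± 0.18 and 2.04 ± 0.28, or a 7.47-fold, 4.74-fold, 4.37-fold and 4.11-fold excess of Cyp4a transcripts. No test was run on this value, since it sums several members, and transcript ratios are not amounts of 20-HETE or EETs.

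Within the Cyp4a group the balance of Cyp4a2 and Cyp4a8 also differed in the normal rats. Per length, Cyp4a2 was 27.6 ± 4.68 times Cyp4a8 in normal (22.9 to 32.6), 13.0 ± 3.55 times in DN (10.04 to 17.7), 17.2 ± 2.13 times in SIN (20 mg/kg) (15.7 to 20.2) and 15.9 ± 0.86 times in SIN (40 mg/kg) (14.8 to 16.8). Cyp4a8 made 2.98% of Cyp4a CPM per kilobase in normal, 6.34% in DN, 4.50% in SIN (20 mg/kg) and 4.91% in SIN (40 mg/kg), and Cyp4a2 between 76.9% and 80.4%. These ratios are descriptions of the values given above and carry no test.

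Ephx2, the hydrolase of EETs, lay between 146 and 380 CPM in 14 rats and far lower in 2. It was at 204, 380, 153 and 330 CPM in normal rats and at 204, 178, 12.1 and 149 CPM in DN rats. It was at 271, 146, 170 and 187 CPM in SIN (20 mg/kg) rats and at 221, 171, 9.75 and 163 CPM in SIN (40 mg/kg) rats. DN replicate 3 (270 estimated counts) was 15.1-fold and SIN (40 mg/kg) replicate 3 (209 estimated counts) 18.7-fold below 183 CPM, the median of the other 14 rats, of which the lowest held 146 CPM. In DN over normal the log2 fold change was -0.97 (SE 0.64, 95% interval -2.39 to 0.45, adjusted p = 0.294) and, without DN replicate 3, -0.59. SIN (40 mg/kg) over normal was -0.92 (SE 0.66, -2.39 to 0.55) and, without its replicate 3, -0.53, and SIN (20 mg/kg) over normal was -0.46 (SE 0.29, -1.10 to 0.17). SIN over DN was 0.51 (-0.84 to 1.86) at 20 mg/kg and 0.06 (-1.86 to 1.97) at 40 mg/kg, wider intervals than those of the other members. No comparison called Ephx2 in any of its alternatives.

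The low Ephx2 in the 2 rats was not shared by Ptk2b and Trim35, which lie near it. In the RefSeq order the neighbours are Gulo and Adam2 on one side and Chrna2, Ptk2b and Trim35 on the other, and they were chosen for display after the Ephx2 values had been seen. Trim35 was at 100 CPM in DN replicate 3 and 96.6 in SIN (40 mg/kg) replicate 3, within 77.5 to 113 CPM over all rats, and Ptk2b was at 76.7 and 88.8 CPM, within 56.9 to 92.7. Chrna2, the next gene, was at 7.47 CPM in DN replicate 3, below the other DN rats (12.5 to 13.1 CPM). In SIN (40 mg/kg) replicate 3 it was at 6.90 CPM, within its group (6.47 to 10.4 CPM). The SIN (20 mg/kg) rats held 8.59 to 14.6 and normal rats 22.6 to 31.1 CPM of it. Gulo was at most 1.01 CPM in any rat, too low to compare, and values of Adam2 are not given. Clu, farther off, was at 444 and 368 CPM. DN replicate 3 also held the highest urothelial markers (Upk1a 37.8 CPM, Upk3a 18.0 CPM) and smooth muscle markers (Myh11 198 CPM, Acta2 189 CPM), whereas SIN (40 mg/kg) replicate 3 held 3.08 CPM of Upk1a and 31.8 CPM of Myh11. A sequence difference in these animals, or a transcript that the gene models miss, was not tested.

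**Figure D4:**
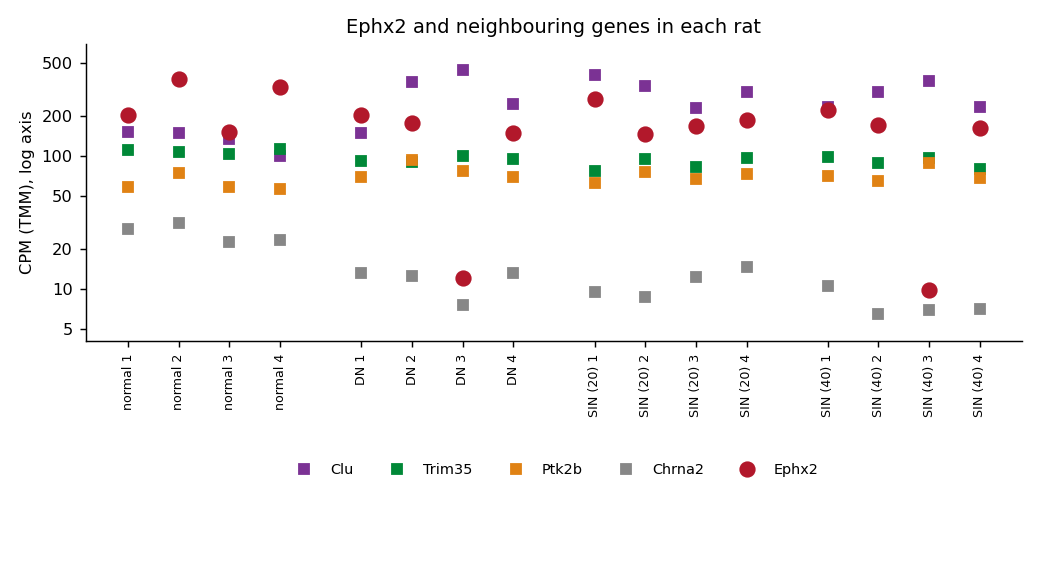
CPM (TMM-scaled, log axis) of Ephx2 (circles) and of 4 genes near it in the RefSeq order (squares) in each of the 16 rats. Ephx2 drops to 12.1 CPM in DN replicate 3 and 9.75 CPM in SIN (40 mg/kg) replicate 3, where Trim35 stays at 100 and 96.6 CPM.

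Over the 16 rats the members did not move as a block. On log2 CPM the highest Pearson correlation between members was 0.69 for Cyp4a1 with Cyp4a2 (0.48 once group means were removed), and Cyp4a2 with Cyp4a3 gave 0.16 (-0.12). Cyp4a1 with Cyp2c23 gave 0.28, and 0.69 within groups. These values are descriptions over rats that share groups and library series and carry no p-value. Among 14725 expressed genes with a symbol, the genes most like each member over the 16 rats were Slc16a11, Adtrp and Msh5 for Cyp4a1 (0.87 to 0.85), Ecm1, Megf11 and Rinl for Cyp4a2 (0.92 to 0.87), Baiap2, Prss8 and Septin8 for Cyp4a3 (0.88 to 0.80), Arap1, Nat10 and Crip1 for Cyp4a8 (0.88 to 0.84), Slc22a8, Pdpn and Alpl for Cyp2c23 (0.91 to 0.90) and Rbm12, LOC100911256 and Prdm1 for Ephx2 (0.81 to 0.78). With group means removed, Baiap2 kept 0.90 with Cyp4a3 and Slc22a8 0.90 with Cyp2c23, whereas Rinl dropped to 0.50 with Cyp4a2. With this many genes compared over 16 rats, values of this size name likeness only.

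The wider pathway was read from lists of genes, in order from the release of arachidonic acid to the receptors, with the same tests over all genes. Of 7 tested phospholipases A2, which free arachidonic acid, 1 rose and 0 fell in DN against normal, where 19.5% of all genes were called: Pla2g15, a lysosomal enzyme, by 0.48 on the log2 scale (SE 0.13, adjusted p = 0.0353), a call lost in 6 of the 8 fits that left out 1 rat (without normal replicates 1, 3 or 4, or DN replicates 2, 3 or 4, up to 0.103). Among 8 other CYP4 fatty acid hydroxylases 1 rose and 0 fell. Cyp4f1 rose by 0.56 (SE 0.17, adjusted p = 0.0429), a call also lost in 6 of 8 such fits (without the same rats, up to 0.121). Such fits also changed the number of all genes called in DN over normal, from 3076 to between 770 and 3782. In SIN over normal it went from 1008 to between 551 and 1230 at 20 mg/kg, and from 940 to between 463 and 1015 at 40 mg/kg. DESeq2 called Pla2g15, Pla2g2a and Cyp4f1 of these lists in DN against normal, and the exact test Pla2g15 and Cyp4f1. Of all genes, DESeq2 called 26.6% in that comparison and the exact test 21.5%. Cyp4f4 was at most 0.75 CPM in any rat. In SIN against DN both lists gave 0 calls at either dose by the quasi-likelihood test, DESeq2 and the exact test, and at an unadjusted p under 0.05 Pla2g15 and Cyp4f5 passed at 20 mg/kg and Pla2g2a at 40 mg/kg.

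Of 4 tested genes in the list of other epoxygenases 1 fell in DN against normal and 0 rose, again beside 19.5% of all genes called. This was Cyp2c11, a male-specific enzyme best known from liver. It was at 31.9, 7.02, 34.7 and 24.7 CPM in normal rats and at 1.19, 0.46, 1.39 and 8.71 CPM in DN rats. It was at 7.31, 6.68, 0.56 and 0.14 CPM in SIN (20 mg/kg) rats and at 3.01, 2.30, 2.05 and 0.53 CPM in SIN (40 mg/kg) rats. The SIN (40 mg/kg) rats were all below every normal rat, and the other diabetic groups overlapped normal through its replicate 2. DN over normal was -3.06 (SE 0.81, adjusted p = 0.0297), a call lost in 6 of 8 fits that left out 1 rat (without normal replicates 1, 3 or 4 or DN replicates 1, 2 or 3, up to 0.0786). SIN (40 mg/kg) over normal was -3.64 (SE 0.55, adjusted p = 0.0049), held in all 16 alternatives, and SIN (20 mg/kg) over normal was -2.72 (adjusted p = 0.0966). Per length it reached 14.5 ± 7.32 CPM per kilobase in normal rats, against 1242 ± 202 of Cyp2c23.

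Ephx1, the microsomal epoxide hydrolase, rose in all 3 diabetic groups. It was at 351, 422, 285 and 399 CPM in normal rats and at 731, 501, 857 and 709 CPM in DN rats, without overlap. The SIN (20 mg/kg) rats were at 442 to 725 CPM and the SIN (40 mg/kg) rats at 504 to 754 CPM. In DN over normal the log2 fold change was 0.95 (SE 0.18, adjusted p = 0.0113), SIN (20 mg/kg) over normal 0.71 (SE 0.17, adjusted p = 0.0334) and SIN (40 mg/kg) over normal 0.77 (SE 0.16, adjusted p = 0.0238). The first call held without any single rat (up to 0.0366) and was lost with the replicate number as a block (0.0503). The second was lost in 6 of 8 such fits, without normal replicates 1, 3 or 4 or SIN (20 mg/kg) replicates 2, 3 or 4 (up to 0.0998). The third was lost in 4 of 8, without normal replicates 1, 3 or 4 or SIN (40 mg/kg) replicate 2 (up to 0.0764). SIN over DN was -0.23 and -0.17, with adjusted p-values of 0.537 and 0.655.

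P450 enzymes need electrons from Por, the P450 reductase, and from the cytochrome b5 system. Of these 3 genes Por was not called, at 0.14 in DN over normal (SE 0.15, adjusted p = 0.531) and 0.32 in SIN (40 mg/kg) over normal (SE 0.15, adjusted p = 0.238). Cyb5r3, the cytochrome b5 reductase, rose in DN by 0.58 (SE 0.08, adjusted p = 0.0047), a call kept without any single rat. Cyb5a rose by 0.64 in SIN (20 mg/kg) over normal (SE 0.12, adjusted p = 0.0145), also kept without any single rat. In SIN (40 mg/kg) over normal Cyb5a rose by 0.43 (adjusted p = 0.0397), a call lost in 7 of 8 fits that left out 1 rat (all but normal replicate 1, up to 0.113) and with all 16 rats in one fit (0.059). Of the lipoxygenase branch, another route for arachidonic acid, 0 of 7 genes were called in DN against normal by the quasi-likelihood test, DESeq2 or the exact test (0 at an unadjusted p under 0.05). Genes of prostaglandin synthesis were not among the lists. Of the 2 tested receptors and channels of the products 0 were called by any of the 3 (1 unadjusted, Trpv4, a calcium channel opened by EETs, at 0.35).

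**Figure D5:**
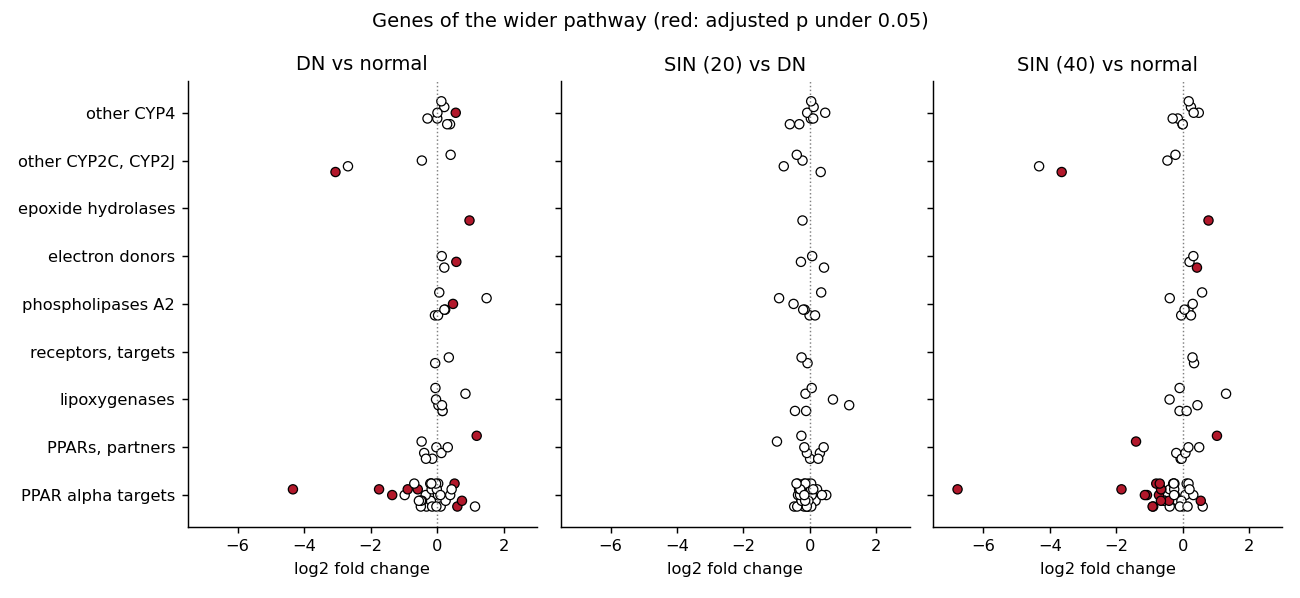
Log2 fold changes of each tested gene of the wider pathway, by list (vertical position within a list only separates points), in DN over normal, SIN (20 mg/kg) over DN and SIN (40 mg/kg) over normal, with red points for an adjusted p under 0.05 in edgeR's quasi-likelihood test. The PPAR alpha targets hold 7 lower and 3 higher calls in DN over normal, 0 in SIN (20 mg/kg) over DN, and 13 lower and 1 higher in SIN (40 mg/kg) over normal.

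Because Cyp4a genes are PPAR alpha targets, 35 other tested targets were set beside them. In DN over normal 7 fell and 3 rose, with a median of -0.17 beside 0.0016 over all genes and 19.5% of all genes called. Angptl4, an inhibitor of lipoprotein lipase, fell by 1.75 on the log2 scale (SE 0.21, adjusted p = 0.00324), from 18.9 to 21.7 CPM in normal rats to 4.24 to 8.65 CPM in DN rats. Pdk4, which restrains glucose oxidation, fell by 1.35 (SE 0.27, adjusted p = 0.0135) and Pex11a, a peroxisome division gene, by 0.88 (SE 0.17, adjusted p = 0.0121). In contrast, Acot8, a peroxisomal thioesterase, rose by 0.53 (SE 0.09, adjusted p = 0.00842). These 4 calls held without any single rat.

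Against normal, 7 targets fell and 1 rose in SIN (20 mg/kg) (median -0.34, with 6.35% of all genes called) and 13 fell and 1 rose in SIN (40 mg/kg) (median -0.29, with 5.97% of all genes called). DESeq2 called 19 targets at each dose, beside 10.9% of all genes at 20 mg/kg and 11.2% at 40 mg/kg. The exact test called 14 at 20 mg/kg and 18 at 40 mg/kg, beside 9.06% and 9.59% of all genes. Angptl4 fell by 1.81 and 1.84 (SE 0.23 and 0.16, adjusted p = 0.00192 and 0.000391), and Pdk4, also lower, stood at -1.395 and -1.14 (SE 0.19 and 0.20, adjusted p = 0.00335 and 0.00963), each kept without any single rat. Acot1, a thioesterase, fell by 0.89 in SIN (40 mg/kg) (SE 0.13, adjusted p = 0.0049), also kept without any single rat. Pex11a was called lower at both doses too (-0.52 and -0.65, adjusted p = 0.0436 and 0.0375 in the quasi-likelihood test). Each of its 2 calls was lost in 6 of 8 fits that left out 1 rat. Hence Angptl4, Pdk4 and Pex11a were called lower than normal in all 3 diabetic groups. Cyp4a2 was called in the 2 SIN groups, and Cyp4a8 had the opposite sign in DN. In SIN against DN 0 of 34 targets were called at either dose by the quasi-likelihood test, and 7 had an unadjusted p under 0.05 at each dose. DESeq2 called 0 targets at 20 mg/kg and 4 at 40 mg/kg (Acot1, Acot4, Acot8 and Plin2), beside 1.39% and 2.81% of all genes. The exact test called 0 and 2 (Acot1 and Plin2), beside 0.566% and 1.04% of all genes.

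Ppara, the gene of the receptor, was called in 0 of the 6 comparisons by the quasi-likelihood test and the exact test, and in SIN (40 mg/kg) over normal by DESeq2 (0.49, SE 0.17, adjusted p = 0.109 in the quasi-likelihood test). It was at 71.6 ± 14.6 CPM in normal, 70.3 ± 13.5 in DN, 94.1 ± 1.64 in SIN (20 mg/kg) and 101 ± 17.5 in SIN (40 mg/kg) rats (SD, n = 4). DN over normal was -0.02 (SE 0.17, adjusted p = 0.943). SIN over DN was 0.41 (SE 0.13) and 0.52 (SE 0.16), with unadjusted p-values of 0.0106 and 0.00849 and adjusted p-values of 0.27 and 0.2. Of 8 genes for PPARs and their partners, Ppard fell in SIN over normal by 1.46 (SE 0.22, adjusted p = 0.00469) at 20 mg/kg and by 1.41 (SE 0.18, adjusted p = 0.00213) at 40 mg/kg, both kept without any single rat. Against DN it stood at -0.99 and -0.93 (adjusted p = 0.27 and 0.174), differences that DESeq2 and the exact test called at both doses. Pparg, the receptor best known from fat cells, rose in DN over normal by 1.19 (SE 0.24, adjusted p = 0.0146), kept without any single rat (up to 0.0486) and lost with the replicate number as a block (0.0547). The quasi-likelihood test also called it higher than normal at 20 mg/kg (0.93, adjusted p = 0.023) and at 40 mg/kg (1.03, adjusted p = 0.0157). These calls were lost in 6 and 2 of 8 fits that left out 1 rat.

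The kidney label was checked against cell markers fixed in lists. All 6 shared proximal tubule markers were detected, with a summed level of 10882 to 15981 CPM over the 16 rats and overlapping ranges in the 4 groups, and liver markers summed to at most 5.78 CPM and the 2 skeletal muscle markers to at most 4.70 CPM, the latter in DN replicate 3. Library serial numbers run consecutively within each group, so a library batch and the condition cannot be told apart. The p-values set a group difference against the spread between these rats and do not separate condition from library batch.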

How the data were processed

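RNA of 16 rat kidneys was measured. According to the paper and the labels, the authors selected polyadenylated RNA, sequenced it in pairs on an Illumina NovaSeq, trimmed the reads by means of SeqPrep and Sickle, and mapped them to Rnor_6.0 using TopHat; the processing notes also name Bowtie, RSEM and edgeR. The deposited table holds estimated counts per gene and rat without normalization, which were rounded to whole counts, and a gene length. Its columns were joined to the rats by library number. The 4 libraries with no sample record, their mean and the 4 group means were not used.

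Each of 6 comparisons was fitted on its 8 rats by edgeR 4.0.16 (R 4.3.3) with the quasi-likelihood test, TMM and filterByExpr, two-sided, with Benjamini-Hochberg adjustment over all genes and a threshold of 0.05. Log2 CPM values used a prior count of 2. Alternatives were DESeq2 1.42.0, edgeR's exact test, RLE, a filter of at least 10 counts in each rat of a comparison or none, a joint fit of all 16 rats, a block for the replicate number, Cyp4a2 and Cyp4a3 summed, and each rat left out. Leaving out DN replicate 3 and SIN (40 mg/kg) replicate 3 together was added after seeing the data.

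On simulated counts for DN against normal, 67.2% of 198 genes with a log2 fold of 1 were called, and 2 of 15671 unchanged ones. The simulation gave every gene the same spread and changed far fewer genes than were called in the data. Its shares therefore do not carry over to Cyp4a3 and Ephx2, whose rats varied more, or to log2 folds under 1. The 6 genes, the pathway lists and the markers were chosen with earlier results of these data known. Named genes are all members, up to 4 called genes per list and comparison by smallest p or else the one with the smallest p, a few genes always given (Ppara, Por, Ephx1, Cyp4f4, Cyp2c11), 3 like genes per member, and markers that moved with a member; not every gene in this rule is reported. Acot4, and neighbours of Ephx2, are outside it, chosen once their values had been seen. Promoter windows are from RefSeq GRCr8, and proteins were not analysed here. Depth is the total estimated count per rat; counting intervals were not used, since the spread between rats sets the precision.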

Additional observations from a re-analysis of the deposited data

Results flagged for a closer look

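In 3 of 24 group and gene combinations, 1 rat lay apart from the other 3 of its group beyond Dixon's 95% limit, a test on the gap as a share of the group's range (chance gives about 1 in 20). Cyp4a3 in normal replicate 3 was the lowest of its group at 974 CPM, with a gap of 0.847 of the range. Ephx2 in DN replicate 3 was the lowest at 12.1 CPM (0.888), and Ephx2 in SIN (40 mg/kg) replicate 3 was the lowest at 9.75 CPM (0.901). The cause was not tested.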

How the results depend on the processing

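Cyp4a8 kept its call in DN over normal in 16 of 16 alternatives and Cyp4a2 its call in SIN (40 mg/kg) over normal in 15 of 15. The number of members called in DN over normal was 1 to 2 when single rats were left out (2 without DN replicate 3). In SIN over DN it was 1 with DESeq2 and 1 with the exact test at each dose, in place of 0. In SIN (20 mg/kg) over normal it was 0 with the replicate block and 0 to 1 with single rats left out (0 without replicate 2 of the SIN group). In SIN (40 mg/kg) over normal it was 2, with Cyp4a1 added, under DESeq2, the exact test, no filter, at least 10 counts, all 16 rats in one fit and the replicate block (which called 11.2%, 9.59%, 3.84%, 6.52%, 5.97% and 7.98% of all genes, beside 5.97% in the reported fit), and 1 to 2 with single rats left out. Without length scaling the balance of Cyp4a over Cyp2c23 was 2.59, 1.96, 1.83 and 1.74 for normal, DN, the lower and then the higher dose.

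Signs turned for differences near 0, none of them called. With single rats left out, the log2 fold change of Cyp4a1 ran from -0.31 to 0.00046 in DN over normal and from -0.30 to 0.011 in SIN (20 mg/kg) over DN. In SIN (20 mg/kg) over DN, Cyp4a3 ran from -0.16 to 0.67 and Cyp2c23 from -0.32 to 0.032. In SIN (40 mg/kg) over DN, Cyp4a3 ran from -0.33 to 0.57, Cyp2c23 from -0.25 to 0.12 and Ephx2 from -0.33 to 0.45. Cyp4a8 in SIN (20 mg/kg) over normal ran from -0.039 to 0.18. Between the doses, Cyp4a2 ran from -0.081 to 0.039, Cyp4a3 from -0.45 to 0.18, Cyp4a8 from -0.049 to 0.16 and Cyp2c23 from -0.050 to 0.18. Summing Cyp4a2 and Cyp4a3 gave -0.21 in SIN (20 mg/kg) and -0.24 in SIN (40 mg/kg) over DN, where Cyp4a3 alone was positive. Cyp4a3 in SIN (40 mg/kg) over DN was also -0.0061 with DESeq2, -0.0062 with RLE, -0.0075 with all 16 rats and -0.080 with the replicate block, and Ephx2 there was -0.025 with the block. Leaving out DN replicate 3 and SIN (40 mg/kg) replicate 3 together, chosen after seeing the data, gave Cyp2c23 0.11 in that comparison. The cause of these changes was not tested.

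The replicate numbers do not pair the rats: deviations of same-numbered rats correlated from -0.25 to 0.27 over 24 pairs of groups and numbers, 2 of them over 0.1. With the replicate block the genes called in DN over normal went from 3076 to 1326, and Ephx1 and Pparg there had adjusted p-values of 0.0503 and 0.0547. Cyp4a2 in SIN (20 mg/kg) over normal had an adjusted p = 0.0626 in edgeR with the block. With 4 rats a group, only differences well outside the spread between rats can be called.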

Other observations

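Of the other PPAR alpha targets, Cyp8b1, a sterol hydroxylase of bile acid synthesis, was at 3.21 to 6.34 CPM in normal rats, at most 0.71 CPM in DN rats, at most 0.20 CPM in SIN (20 mg/kg) rats and at most 0.053 CPM in SIN (40 mg/kg) rats, levels of few counts for which no fold is given. Plin2, which coats lipid droplets, fell by 0.80 in SIN (40 mg/kg) over normal (SE 0.16, adjusted p = 0.0189), a call lost without normal replicate 1 or SIN (40 mg/kg) replicates 2 or 3 (up to 0.0639). Fabp3, a fatty acid binding protein, rose by 0.75 in DN (SE 0.16, adjusted p = 0.0164), a call lost without normal replicate 4 (0.0516), and by 0.69 in SIN (20 mg/kg) over normal (SE 0.15, adjusted p = 0.0235), lost without normal replicates 1 or 4 or replicates 2 or 3 of the SIN group (up to 0.0677).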
